A study of Mus musculus with 55 samples.

Results

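A set of 1512 stretches of open macrophage chromatin gained H3K27ac within 2 h of lipopolysaccharide (LPS) and still carried it at 6 h. They were 1.56% of the 97113 merged open-chromatin regions over which H3K27ac, acetylation of a lysine in the tail of histone H3, was counted. The regions were chosen by these H3K27ac values themselves. A region was taken when, in replicate 1 and in replicate 2 each, its value with LPS was at least 3 times the value with vehicle at 2 h plus 1, both at 2 h and at 6 h, and both LPS values were at least 10. The values are tags, the mapped reads in a 1000 bp window, which the authors normalised to a total of 10000000 for each library. Of the 1512 regions, 58 had fewer than 2 tags with vehicle in both replicates and are called low-start regions, and 1454 did not. For comparison, 296 regions passed the same limits at 2 h and not at 6 h in both replicates (2 h only), and 252 passed at 6 h and not at 2 h (6 h only). At the other time most of both sets were also higher with LPS than with vehicle at 2 h, short of the limits.

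The cells were bone marrow-derived macrophages (BMDM) of C57BL/6 mice, grown with L-cell conditioned medium as the source of M-CSF and starved of serum overnight. They were given 10 ng/ml LPS (LPS2h, LPS6h), 100 µg/ml of the milk oligosaccharide 3'-sialyllactose together with LPS (3SL_LPS2h, 3SL_LPS6h), 3'-sialyllactose alone (3SL2h, 3SL6h) or the vehicle PBS (PBS2h, PBS6h). H3K27ac was measured in cells fixed with formaldehyde and p300, an acetyltransferase that places this mark, in cells fixed with disuccinimidyl glutarate and formaldehyde. Each group was analysed from 2 libraries, except PBS6h for H3K27ac and both PBS groups for p300. Of these, the replicate 1 libraries were not analysed here, because no column of the tables could be matched to them, and replicate 2 stands alone. A replicate 1 PBS library for H3K27ac with no time in its title entered the fit as a group of its own. The open-chromatin regions themselves came from untreated macrophages and macrophages given the TLR4 agonist KLA for 1 h in another study.

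All 10 macrophage markers looked up, among them Csf1r, Cd68, Spi1 and Adgre1, had an acetylated region at their start site in PBS2h, with mean deposited values of 101.5 to 562.3 tags. The 3 of 4 fibroblast markers with a region had 0.415 to 1.65 tags and the 4 neutrophil markers 0.415 to 17.4 tags. The 4 dendritic cell markers ran from 0.99 tags (Siglech) to 192.2 tags (Xcr1), with Flt3 and Zbtb46 at 2.56 and 4.62. Of 5 T cell markers 3 had a region, Cd8a with 2.40 tags, Cd4 with 84.6 and Cd3d with 112.2 at a region 4826 bp from its start, and of 4 B cell markers Ms4a1 alone had one, with 73.2 tags. The part of other cells in the results was not tested. H3K27ac libraries held 4200716 to 39597624 tags and p300 libraries 3199270 to 18130439, inputs included. The share of p300 tags inside the regions was 6.12% to 9.42% in replicate 1 and 20.1% to 27.5% in replicate 2. Values were therefore rescaled per library on the tested regions before any comparison, and they are called rescaled tags. These are bulk measurements, so more marked cells and more mark per cell cannot be told apart.

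LPS is sensed by TLR4, whose signal releases NF-kB dimers into the nucleus and activates AP-1 and interferon regulatory factors. These factors join PU.1 and C/EBP proteins, which set up the enhancers of macrophages, and bring in coactivators such as p300. Early genes of the response encode cytokines, chemokines and the inhibitors that end the signal, and later genes encode enzymes and receptors of the activated cell.

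The sequences at the centres of 7 of the regions are given because the results below turn on them: 6 lie beside genes of the LPS response, and the Ube2z region is the low-start region with the highest mean of deposited H3K27ac tags over the LPS6h libraries. They are 200 bases each, on the plus strand of mm10 (GRCm38.p6, from RefSeq), at chr11:117977894-117978093 (Socs3), chr17:17884941-17885140 (Fpr1), chr2:30925188-30925387 (Ptges), chr2:129380872-129381071 (Il1b), chr17:13009976-13010175 (Sod2), chr1:149841915-149842114 (Pla2g4a) and chr11:96058389-96058588 (Ube2z). Each is named by the gene with the nearest start site, which is not shown to be the gene it acts on. The Socs3, Fpr1, Ptges and Il1b regions are intergenic and the Sod2, Pla2g4a and Ube2z regions lie in introns of those genes. Capitals mark matches to the motifs searched, which were NF-kB, ISRE (GAAANNGAAA, the interferon response element), AP-1 (TGANTCA), C/EBP (TTGCNNAA), PU.1 (GAGGAAGT) and GAS (TTCNNNGAA, bound by STAT proteins), all on both strands. PU.1 and GAS matches are not marked in capitals.
Socs3: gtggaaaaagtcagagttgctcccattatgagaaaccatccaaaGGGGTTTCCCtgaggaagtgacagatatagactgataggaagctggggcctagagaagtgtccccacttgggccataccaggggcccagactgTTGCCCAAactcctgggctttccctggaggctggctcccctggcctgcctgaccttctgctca
Fpr1: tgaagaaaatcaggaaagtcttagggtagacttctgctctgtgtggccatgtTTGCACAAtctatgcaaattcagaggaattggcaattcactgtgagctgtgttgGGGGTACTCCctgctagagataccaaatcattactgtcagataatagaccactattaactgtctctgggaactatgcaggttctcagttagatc
Ptges: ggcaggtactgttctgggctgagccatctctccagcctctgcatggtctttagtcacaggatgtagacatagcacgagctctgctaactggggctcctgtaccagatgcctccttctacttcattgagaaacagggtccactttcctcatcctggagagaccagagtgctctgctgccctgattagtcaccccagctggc
Il1b: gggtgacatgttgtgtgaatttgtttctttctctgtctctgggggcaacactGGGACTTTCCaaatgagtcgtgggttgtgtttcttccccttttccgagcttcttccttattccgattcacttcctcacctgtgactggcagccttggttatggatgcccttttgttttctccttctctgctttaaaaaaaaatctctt
Sod2: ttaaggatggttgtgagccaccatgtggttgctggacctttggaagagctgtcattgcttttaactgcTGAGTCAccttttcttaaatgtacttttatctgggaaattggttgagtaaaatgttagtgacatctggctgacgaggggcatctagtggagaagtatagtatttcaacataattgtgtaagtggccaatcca
Pla2g4a: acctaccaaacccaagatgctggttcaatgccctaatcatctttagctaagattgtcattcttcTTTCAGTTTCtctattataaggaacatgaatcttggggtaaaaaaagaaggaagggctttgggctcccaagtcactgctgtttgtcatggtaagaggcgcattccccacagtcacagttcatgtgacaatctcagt
Ube2z: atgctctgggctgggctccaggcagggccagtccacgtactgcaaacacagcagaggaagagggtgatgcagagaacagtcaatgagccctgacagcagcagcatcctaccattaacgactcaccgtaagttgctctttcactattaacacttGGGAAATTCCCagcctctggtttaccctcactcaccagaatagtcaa
The Socs3 sequence holds an NF-kB match and a C/EBP match, and the Fpr1 sequence the same pair in the other order. Il1b has an NF-kB match, Sod2 an AP-1 match, Pla2g4a an ISRE match on the minus strand, and Ube2z a pair of overlapping NF-kB matches on opposite strands. The Ptges sequence holds no match to the 4 motifs shown in capitals.

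The rule fixed the course of H3K27ac with LPS, so its values describe the regions and test nothing. The median region had 90.3 and 84.5 deposited tags in the LPS2h libraries of replicates 1 and 2, against 10.7 and 8.07 tags in PBS2h. At 6 h it had 97.4 and 96.3 tags in LPS6h, against 10.4 tags in PBS6h. With 3'-sialyllactose the medians were 87.4 and 66.0 tags in 3SL_LPS2h, against 12.3 and 9.33 tags in 3SL2h, and 72.3 and 50.8 tags in 3SL_LPS6h, against 11.9 and 9.52 tags in 3SL6h. Input libraries had medians of 6.15 to 7.80 tags, so vehicle values lay close to the background of the assay. Every median with LPS was thus far above every median without it.

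**Figure D1:**
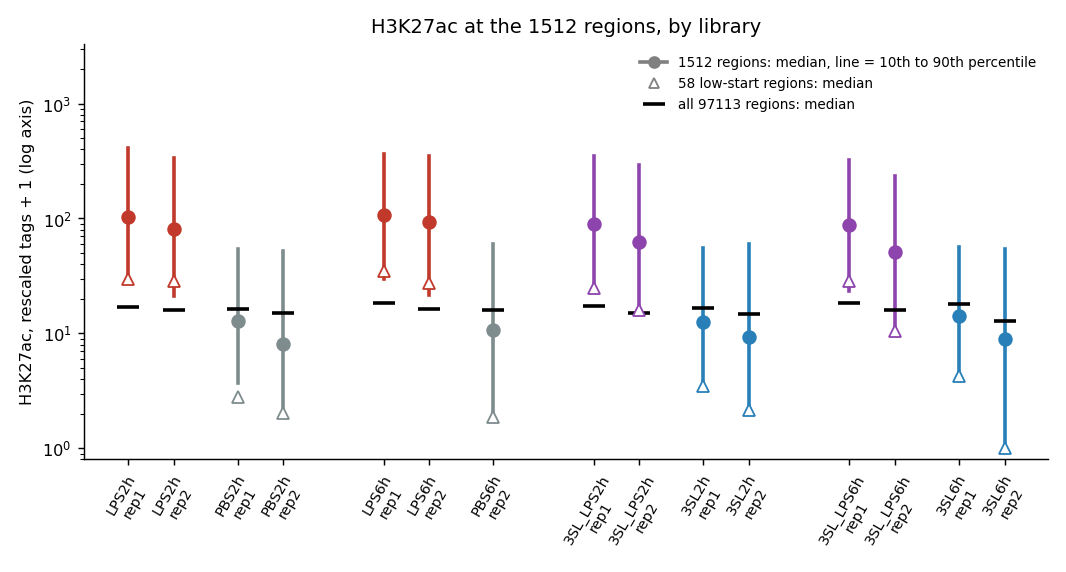
H3K27ac (rescaled tags plus 1, log axis) at the 1512 regions in each library. Dots are medians, lines run from the 10th to the 90th percentile, triangles are medians of the 58 low-start regions and black bars medians of all 97113 regions; with LPS the 1512 regions have medians of 49.7 to 105.5 rescaled tags, above the black bar in each of these 8 libraries, and without LPS their medians of 7.09 to 13.1 rescaled tags lie below it.

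The smallest of a region's 4 ratios of LPS to PBS2h plus 1 had a median of 4.51 over the regions and reached 46.1, and 360 regions (23.8%) were under 3.5. Just inside the limit were a region beside Serpinb1b, with 45.1 and 19.6 deposited tags in LPS2h, 58.2 and 20.2 in LPS6h and 14.0 and 2.31 in PBS2h, and the promoter of Gbp2, with 1255 and 483 in LPS2h, 672 and 325 in LPS6h and 73.5 and 107 in PBS2h. Just outside was a region beside Rasgrp1, with 42.8 and 46.8 tags in LPS2h, 80.2 and 44.5 in LPS6h and 9.91 and 13.8 in PBS2h. The regions at the limit were thus acetylated with LPS on both sides of it.

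p300, which the rule did not use, was higher with LPS at most of the regions. The median region had 52.6 and 43.4 rescaled p300 tags in LPS2h, against 4.23 tags in PBS2h, and 33.5 and 31.3 tags in LPS6h, against 4.27 tags in PBS6h. Over all 97113 regions the medians of the libraries ran from 5.56 to 7.09 tags, so the regions began near that level and rose above it with LPS at both times. The low-start regions had medians of 31.9 and 27.96 tags in LPS2h, against 0 in PBS2h, and 21.2 and 12.5 tags in LPS6h, against 0 in PBS6h.

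**Figure D2:**
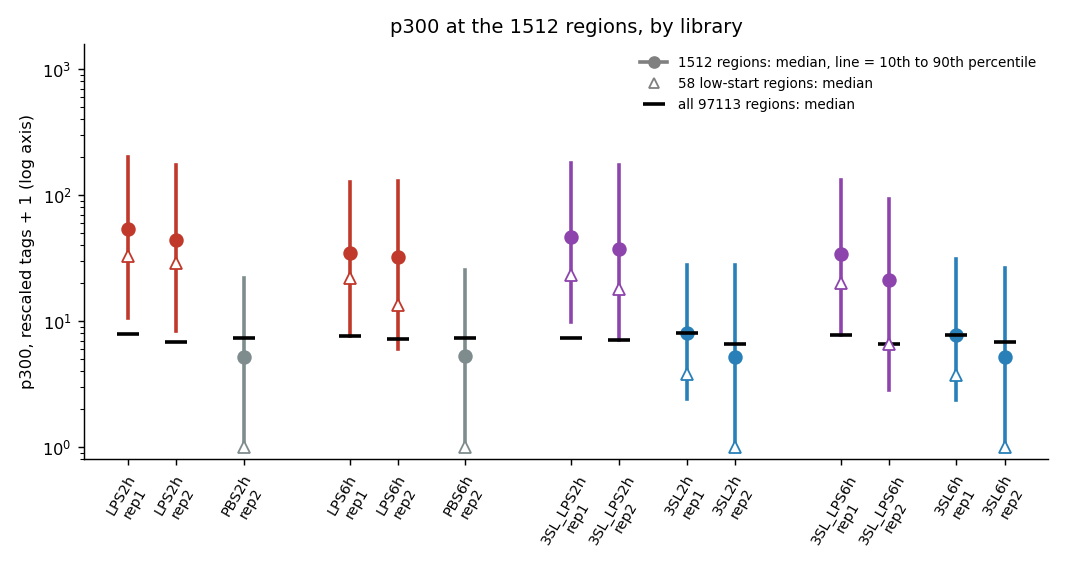
p300 (rescaled tags plus 1, log axis) at the 1512 regions in each library, drawn as for H3K27ac, with dots for medians, lines from the 10th to the 90th percentile, triangles for the 58 low-start regions and black bars for all 97113 regions. The medians with LPS, 20.4 to 52.6 rescaled tags, all lie above those without it, 4.20 to 7.09 rescaled tags.

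At 2 h, p300 was called higher in LPS2h than in PBS2h at 506 of the 1446 regions that passed the filter on low values (34.99%; limma, Benjamini-Hochberg adjusted p under 0.05), against 2.17% of all 62225 regions tested. With no filter it was called at 436 of all 1512, against 1110 of all 97113 regions in either direction. None was called lower, against 0.156% of all regions. The median log2 change was 3.38, against 0.11 over all regions tested, and 2.58 with regions at 0 tags in PBS2h set to the bound that 3 tags allow, since 538 of the 1512 had no tag there and 467 had 1 to 3. Within replicate 2, the replicate whose p300 vehicle libraries were analysed here, the median was 3.16 and 1452 of the 1512 changes were above 0.

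At 6 h, p300 was called higher in LPS6h than in PBS6h at 163 of the 1446 regions (11.3%, limma), against 0.4% of all regions tested. With no filter it was called at 119 of all 1512, against 166 of all 97113 regions in either direction. None was called lower, against 0.0225% of all regions tested. The median log2 change was 2.51, against −0.05 over all regions, and 2.24 with the bounds. Within replicate 2 it was 2.40, with 1396 of 1512 changes above 0. Of the regions called at either time, 134 were called at both, 26.5% of the 506 and 82.2% of the 163.

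These calls depend on how the libraries are scaled and on a single vehicle library, which is assumed to vary like the other groups. With the deposited scaling all regions had medians of −0.68 at 2 h and −0.96 at 6 h and the 1446 regions 2.72 and 1.57. Of the 1446 it called 1 and 0, while edgeR's quasi-likelihood test called 57 and 0 and DESeq2 354 and 282. Over all regions tested, calls in either direction were 1 and 0 (deposited scaling), 79 and 0 (edgeR) and 803 and 489 (DESeq2). Without replicate 1 of LPS2h 178 regions were called and without replicate 2 265, and without 1 of the LPS6h libraries 4 to 8.

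**Figure D3:**
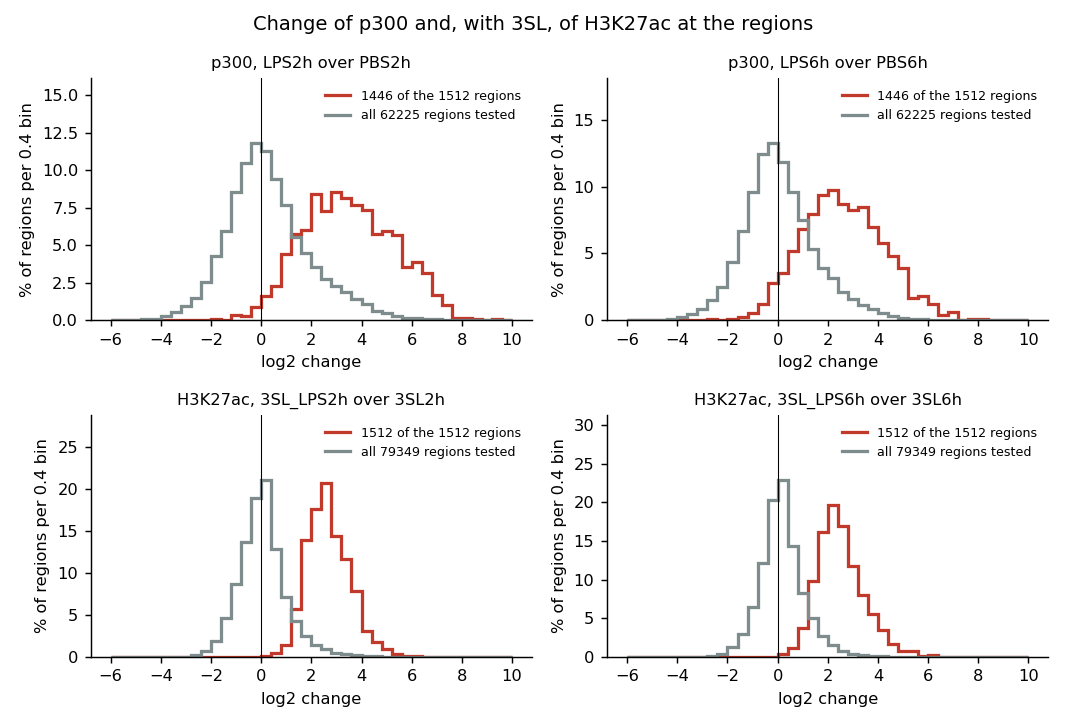
Log2 changes of p300 with LPS (top) and of H3K27ac with LPS in the presence of 3'-sialyllactose (bottom) at 2 h (left) and 6 h (right). Red lines are the regions described here and grey lines all regions tested, as % of regions per bin of 0.4; the red medians are 3.38, 2.51, 2.59 and 2.38 and the grey ones 0.11, −0.05, 0.02 and 0.10.

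An intergenic region at −8627 bp from the Socs3 start site, whose product blocks cytokine signalling through JAK kinases, had the most p300 at 2 h of those named (chr11:117977493-117978493). It had 956 and 484 rescaled tags in LPS2h and 0 in PBS2h, which is at least 115-fold higher (limma adjusted p = 0.000173; 0.00166 to 0.00487 without either LPS2h library). In LPS6h it had 381 and 346 tags, against 5.33 tags in PBS6h (log2 change 5.85, SE 0.86, adjusted p = 0.00997), and that call ended without either LPS6h library (adjusted p 0.071 to 0.0722). All 4 LPS libraries were far above both vehicle libraries. It was the only named region whose call at 2 h also held on the authors' scaling. H3K27ac there was 203 and 96.0 rescaled tags in LPS2h, against 5.42 and 3.04 in PBS2h, and 249.5 and 309 in LPS6h, against 2.62 in PBS6h.

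The other Socs3 region named lies 22667 bp downstream of the start site and had p300 with vehicle already. It had 757.5 and 477 tags in LPS2h, against 40.1 tags in PBS2h (log2 change 3.87, SE 0.55, adjusted p = 0.00152; 0.00774 to 0.0224 without either LPS2h library). Both LPS2h values lay above the vehicle value.

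Fpr1 and Fpr2 encode receptors for formylated bacterial peptides. The region at −1101 bp from the Fpr1 start site had 107 and 307.5 p300 tags in LPS2h and 0 in PBS2h, at least 32.2-fold higher (adjusted p = 0.000521; 0.00487 to 0.00848 without either LPS2h library). In LPS6h it had 256.5 and 391 tags, against 4.27 tags in PBS6h (log2 change 5.92, SE 0.90, adjusted p = 0.0108), a call that ended without either LPS6h library (0.0722 to 0.0913). Replicate 2 was the higher one at both times, and no LPS value came near a vehicle value. A region 13172 bp from the start of Fpr2 had 278 and 534 tags in LPS2h, against 14.8 tags in PBS2h (log2 change 4.61, SE 0.65, adjusted p = 0.00139; 0.00745 to 0.0177 without either LPS2h library).

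Ptges encodes the synthase that makes prostaglandin E2 in activated macrophages. The intergenic region at −21990 bp had 374 and 196 p300 tags in LPS2h and 0 in PBS2h, at least 45.4-fold higher (adjusted p = 0.000147; 0.0012 to 0.00487 without either LPS2h library). In LPS6h it had 332 and 351 tags, against 13.9 tags in PBS6h (log2 change 4.53, SE 0.70, adjusted p = 0.0108; 0.0734 to 0.085 without either LPS6h library, which ended the call). It thus kept its p300 to 6 h with no match to the 4 motifs shown in capitals. An intergenic region at −4483 bp from the Ccl5 start site, a chemokine that draws T cells and monocytes, did otherwise. It had 419.6 and 243 tags in LPS2h and 0 in PBS2h, at least 52.7-fold higher (adjusted p = 0.0003; 0.00322 to 0.00536 without either LPS2h library), and 105 and 26.3 tags in LPS6h, against 10.7 tags in PBS6h (log2 change 2.20, SE 0.89, adjusted p = 0.424).

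**Figure D4:**
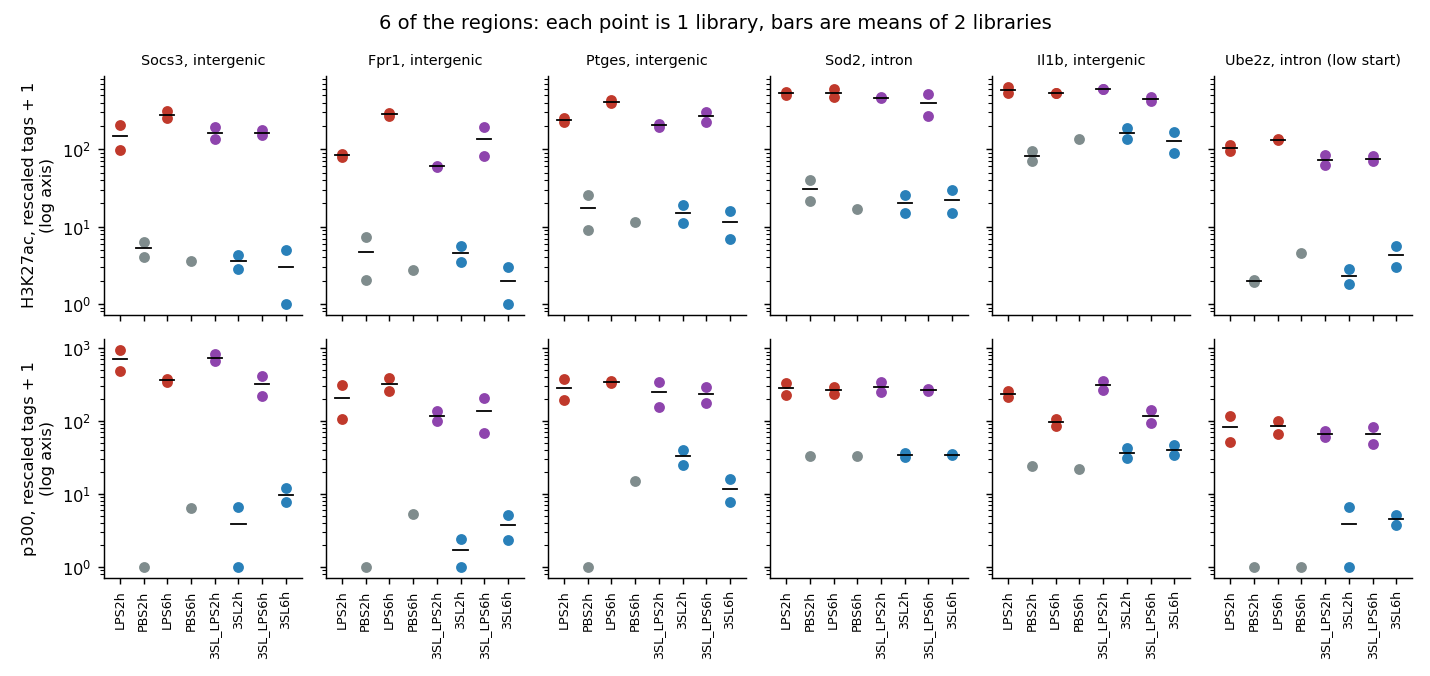
H3K27ac (top) and p300 (bottom), as rescaled tags plus 1 on a log axis, at 6 of the regions, named by nearest gene. Each point is 1 library and bars are means of 2 libraries; in every panel each LPS and 3SL_LPS point lies above each PBS and 3SL point, and Socs3, Fpr1, Ptges and Ube2z have p300 at 0 tags in PBS2h.

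With 3'-sialyllactose alone few changes were called. H3K27ac in 3SL6h over PBS6h had a median log2 change of 0.02, which was −0.18 without 3SL6h replicate 1 and 0.37 without replicate 2, and limma called 0 of the 1512 (47 at an unadjusted p under 0.05, 0 of all regions called or 0.0%; edgeR and DESeq2 called 0). In 3SL2h over PBS2h, where the rule used PBS2h, the median was 0.10. For p300 the median log2 change was 0.52 in 3SL2h over PBS2h, against 0.11 over all regions tested, with 898 of the 1446 above 0. Within replicate 2, the replicate of the PBS2h library, the median was 0, with 700 of the 1512 changes above 0. In 3SL6h over PBS6h the median was 0.20, against 0.02 over all regions tested, with 825 of the 1446 above 0. The libraries with 3'-sialyllactose were not used by the rule, and they give a second look at LPS in the same regions.

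In 3SL_LPS2h over 3SL2h H3K27ac was called higher at 639 of the 1512 regions (42.3%, limma), against 1.55% of all 79349 regions tested, and in 3SL_LPS6h over 3SL6h at 306 (20.2%), against 0.518%. None was called lower at either time, against 0.773% and 0.0668% of all regions. The median log2 changes were 2.59 and 2.38, against 0.02 and 0.10 over all regions tested. By replicate the medians were 2.69 and 2.54 at 2 h, with 1511 and 1508 of the 1512 changes above 0, and 2.42 and 2.35 at 6 h, with 1511 and 1491 above 0. The 3-fold limit of the rule was applied to these pairs one by one, without its minimum of 10 tags. It was met at 1306 and 1215 regions at 2 h and at 1177 and 1005 at 6 h. Of the regions called, 274 were called at both times, 42.9% of the 639 and 89.5% of the 306.

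The counts rest on 2 libraries a group. Without any 1 of the 4 libraries, 31 (3SL_LPS2h replicate 2 left out) to 135 regions (3SL2h replicate 1 left out) were called at 2 h, with 117 without 3SL_LPS2h replicate 1 and 97 without 3SL2h replicate 2. At 6 h 0 were called without 3SL_LPS6h replicate 1, 51 without 3SL_LPS6h replicate 2, 19 without 3SL6h replicate 2 and 208 without 3SL6h replicate 1.

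p300 moved with LPS in these cells too. The median region had 45.9 and 36.4 rescaled tags in 3SL_LPS2h, against 7.09 and 4.22 tags in 3SL2h, and 32.8 and 20.4 tags in 3SL_LPS6h, against 6.83 and 4.20 tags in 3SL6h. It was called higher at 399 of the 1446 regions tested at 2 h (27.6%, limma), against 1.07% of all regions, and at 104 at 6 h (7.19%), against 0.219%. With no filter 351 and 81 of all 1512 were called, against 597 and 106 of all 97113 regions in either direction. None was called lower, against 0.108% and 0.0193% of all regions. Here each group has 2 libraries, and 71 of the 1512 regions had no tag in 3SL2h. Of the 506 regions called in LPS2h over PBS2h, 296 (58.5%) were also called in 3SL_LPS2h over 3SL2h, 74.2% of the 399. On the authors' scaling 3 and 0 of the regions were called, and 3 and 0 over all regions tested. Without any 1 library 91 to 300 were called at 2 h (130 and 91 without 3SL_LPS2h replicate 1 or 2, and 142 without 3SL2h replicate 2) and 0 to 117 at 6 h (0 and 11 without 3SL_LPS6h replicate 1 or 2, and 22 without 3SL6h replicate 2).

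The Socs3 region upstream had 190.3 and 134 H3K27ac tags in 3SL_LPS2h, against 3.31 and 1.83 tags in 3SL2h (log2 change 5.52, SE 0.68, adjusted p = 0.00452), a call that ended without replicate 2 of either group (adjusted p up to 0.0552). In 3SL_LPS6h it had 175 and 151 tags, against 3.94 and 0 tags in 3SL6h (log2 change 6.20, SE 0.68, adjusted p = 0.00689; 0.127 without 3SL_LPS6h replicate 1). Its p300 was 663 and 823 tags in 3SL_LPS2h, against 5.67 and 0 tags in 3SL2h (log2 change 8.16, SE 0.70, adjusted p = 0.000142; at most 0.00645 without any 1 library). The groups were far apart in each.

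Sod2 encodes the superoxide dismutase of mitochondria. The region in its intron had 467 and 453 H3K27ac tags in 3SL_LPS2h, against 24.8 and 14.2 tags in 3SL2h (log2 change 4.54, SE 0.47, adjusted p = 0.00289; 0.0209 to 0.045 without any 1 library). In 3SL_LPS6h it had 514 and 272 tags, against 28.9 and 13.9 tags in 3SL6h (log2 change 4.15, adjusted p = 0.00754; up to 0.142 without 3SL_LPS6h replicate 1 or 3SL6h replicate 2, which ended the call). Its p300 was 329.6 and 228 tags in LPS2h, against 31.7 tags in PBS2h (log2 change 3.07, SE 0.54, adjusted p = 0.00605; 0.0608 without LPS2h replicate 1). The Sod2 region was thus separated in both marks, with p300 present before LPS.

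The H3K27ac calls at 2 h at Fpr2 (log2 change 3.56, SE 0.32, adjusted p = 0.00178), at a region 32704 bp from Fgd2, an activator of the GTPase Cdc42 (4.38, SE 0.31, adjusted p = 0.00126), and at an intron of Slc31a2, a copper transporter (2.04, SE 0.24, adjusted p = 0.00395), also held without any 1 library (limma). At Fpr2 the values were 414 and 442 tags in 3SL_LPS2h, against 33.1 and 37.6 tags in 3SL2h. At Slc31a2 they were 885 and 718 tags in 3SL_LPS2h, against 200.9 and 186 tags in 3SL2h. These 3 regions, that of Sod2 and the low-start region at Ube2z were the 5 of 33 regions called and looked at in this way that kept the H3K27ac call at 2 h without any 1 library, and every H3K27ac call at 6 h printed here ended without 3SL_LPS6h replicate 1.

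Between 3SL_LPS and LPS, p300 was not told apart. The median log2 change of the regions was −0.18 at 2 h and −0.29 at 6 h, and limma, edgeR and DESeq2 called 0 at both times (4 and 25 at an unadjusted limma p under 0.05), as in 0.0% of all regions. By replicate the medians were −0.20 and −0.16 at 2 h and 0.03 and −0.59 at 6 h. With the deposited scaling the change at 6 h was 0.05, and that of all regions 0.32. For H3K27ac the LPS libraries were used by the rule, so values chosen to be high there stand on one side, and the difference is only described. In 3SL_LPS2h over LPS2h the medians were −0.22 and −0.34, with 1184 and 1193 of the 1512 changes below 0, and in 3SL_LPS6h over LPS6h −0.24 and −0.76, with 1253 and 1416 below 0, against −0.03, 0.01, 0.03 and 0.09 over all regions.

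The same limits were also applied to 3SL_LPS2h and 3SL_LPS6h against 3SL2h in place of LPS and PBS2h, a choice made after seeing the data. They were met at 791 regions, of which 642 were among the 1512 (42.5% of the 1512 and 81.2% of the 791). At these 791, chosen with the other side of the difference, the medians were −0.22 and −0.26 at 2 h and −0.21 and −0.74 at 6 h. Replicate 2 at 6 h was the lowest of the 4 in both sets.

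The mean of a region's LPS6h values over that of its LPS2h values had a median of 1.02, with 80% of regions between 0.645 and 1.70. The ratio was above 2 at 87 regions and below 0.5 at 46. It was highest, 11.1, in an intron of Saa3, an acute-phase protein made by activated macrophages, which had 114 and 359 rescaled H3K27ac tags in LPS6h, against 19.9 and 24.4 tags in LPS2h. With 3'-sialyllactose that region had 51.9 and 62.8 tags in 3SL_LPS6h, against 2.63 and 3.96 tags in 3SL6h (log2 change 3.78, limma adjusted p = 0.0294; 0.0942 to 0.227 without any 1 of the 4 libraries, which ended the call, as did the deposited scaling).

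At the other end was the promoter of Cish, an inhibitor of STAT signalling, with 32.2 and 34.8 tags in LPS6h, against 173 and 96.8 tags in LPS2h. An intron of Abracl had 37.8 and 24.5 tags in LPS6h, against 127.5 and 136 tags in LPS2h. p300 at the Abracl region was 77.6 and 104.5 tags in LPS2h and 0 in PBS2h, at least 14.3-fold higher (adjusted p = 0.0103; 0.0675 to 0.0762 without either LPS2h library, which ended the call), and 2.23 and 5.01 tags in LPS6h, against 3.20 tags in PBS6h. There p300 was back among the vehicle values at 6 h, whereas H3K27ac at that time was above vehicle by the rule.

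Across the regions p300 was lower at 6 h than at 2 h by a small median log2 change (−0.53; −0.54 and −0.48 by replicate), with 0 called (limma and edgeR; 122 at an unadjusted p under 0.05; DESeq2 called 1; 0.0% of all regions). H3K27ac in 3SL_LPS6h over 3SL_LPS2h, which the rule did not use, had a median of −0.20 with 0 called (limma and edgeR; 54 at an unadjusted p under 0.05; DESeq2 called 2; 0.0% of all regions). The comparison sets bracketed these values. For p300 in LPS6h over LPS2h the 2 h only regions had a median of −1.41 and the 6 h only regions 0.53, and for H3K27ac in 3SL_LPS6h over 3SL_LPS2h −0.96 and 0.65. These differences between sets are descriptions.

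In p300 at 2 h, LPS2h over PBS2h, the sustained regions had a median log2 change of 3.38, the 2 h only regions 2.85 and the 6 h only regions 1.47. At 6 h, LPS6h over PBS6h, they had 2.51, 0.89 and 1.97. The sustained regions were thus the highest of the 3 sets at both times. By the choice of the sets they also had the larger H3K27ac changes over PBS2h. In LPS2h the median log2 changes were 2.96 (sustained), 2.23 (2 h only) and 1.15 (6 h only). In LPS6h they were 2.97, 1.13 and 2.22. Time course and size of the response therefore cannot be told apart between these sets. In tags, the 2 h only regions had medians of 26.3 and 20.6 in LPS2h and 11.2 and 7.52 in LPS6h, below the sustained regions in each library.

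The regions were the nearest to 854 genes, 4.55% of the 18762 with a region, and gene lists of the LPS response held a larger share of their regions than the 1.56% of all regions. The lists were drawn up with results of these data known. For the calls in the lists, p300 in LPS2h over PBS2h was called at 34.99% of the set's tested regions and 2.17% of all. H3K27ac with 3'-sialyllactose was called at 42.3% of the set and 1.55% of all at 2 h, and 20.2% and 0.518% at 6 h. Differences between the lists and the set were not tested. Of 17 NF-kB subunits and inhibitors, 11 had at least 1 sustained region (Nfkb1, Rel, Nfkbia, Nfkbie, Nfkbiz, Bcl3, Tnfaip3, Tnip1, Tnip3, Birc3 and Traf1), with 25 of the list's 221 regions (11.3%). p300 was called higher in LPS2h at 11 of the 25, and H3K27ac in 3SL_LPS2h over 3SL2h at 19. The median log2 changes were 5.02 and 3.35.

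Nfkbia encodes the inhibitor that holds NF-kB in the cytoplasm. A region 4710 bp from its start had 51.2 and 206 p300 tags in LPS2h and 0 in PBS2h, at least 19.9-fold higher (adjusted p = 0.00136; 0.00529 to 0.0205 without either LPS2h library). Replicate 2 was far above replicate 1 there, and both lay above vehicle. Bcl3 and Nfkbie, further members of the inhibitor family, had acetylation without a p300 call. The Bcl3 intron had 432 and 657 H3K27ac tags in 3SL_LPS2h, against 79.4 and 141 tags in 3SL2h (log2 change 2.32, SE 0.39, adjusted p = 0.0152; 0.0532 to 0.13 without any 1 library, which ended the call), and 84.5 and 121 p300 tags in LPS2h, against 38.0 tags in PBS2h (1.39, adjusted p = 0.48). The Nfkbie intron had 31.9 and 29.4 p300 tags in LPS2h, against 21.1 tags in PBS2h (0.51, adjusted p = 0.90).

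Of 23 cytokine genes with a region 10 had a sustained one, with 33 of 206 regions (16.02%): Il1a, Il1b, Il6, Il12a, Il27, Tnf, Lta, Tnfsf15, Inhba and Edn1. p300 was called at 2 h at 11 of the 32 tested and H3K27ac with 3'-sialyllactose at 8 of the 33. Il1b, the fever-inducing cytokine, had 6 of its 8 regions among them. The one at −9832 bp had 255 and 215 p300 tags in LPS2h, against 23.2 tags in PBS2h (log2 change 3.28, SE 0.58, adjusted p = 0.00605; 0.0542 without LPS2h replicate 1), and 107 and 84.0 tags in LPS6h, against 21.3 tags in PBS6h (2.10, adjusted p = 0.156). Il27, which steers T cells, had 192.5 and 126.5 tags in LPS2h at a region at −4250 bp and 2.11 tags, a single read, in PBS2h (ratio 76.0, 95% counting interval 13.5 to 3014; adjusted p = 0.0003; 0.00286 to 0.00487 without either LPS2h library). Both were clear of the vehicle value at 2 h.

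Chemokines and their receptors had the largest share, 28 of 135 regions (20.7%), at 10 of 21 genes (Ccl2, Ccl3, Ccl4, Ccl5, Ccl12, Cxcl2, Cxcl5, Cxcl10, Ccr7 and Ccrl2). p300 was called at 13 of the 28 and H3K27ac with 3'-sialyllactose at 15 at 2 h and 10 at 6 h. The promoter of Ccl12, a monocyte chemokine, had 354 and 424 H3K27ac tags in 3SL_LPS6h, against 34.1 and 37.7 tags in 3SL6h (log2 change 3.40, adjusted p = 0.0195; 0.0694 to 0.188 without any 1 of the 4 libraries, which ended the call). Receptors and costimulatory genes had 37 of 223 regions (16.6%) at 11 of 24 genes, among them Cd40, Cd69, Cd274, Marco and Clec4e, with p300 called at 14 of 36 and H3K27ac at 21 of 37. The promoter of Clec4e, the receptor Mincle, had 192.5 and 284 p300 tags in LPS2h, against 35.9 tags in PBS2h (2.67, adjusted p = 0.0305; 0.0829 to 0.159 without either LPS2h library, which ended the call).

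Interferon response genes had 27 of 213 regions (12.7%) at 15 of 34 genes, with p300 called at 6 of 25 and H3K27ac at 8 of 27. The 3 regions named here had replicates far apart. The promoter of Gbp2, a GTPase that attacks the vacuoles of pathogens, had 366 and 119 p300 tags in LPS2h, against 16.9 tags in PBS2h (log2 change 3.55, SE 1.06, adjusted p = 0.0992). The promoter of Zbp1, a sensor of nucleic acids, had 371 and 184 H3K27ac tags in 3SL_LPS2h, against 21.5 and 56.4 tags in 3SL2h (2.87, adjusted p = 0.0261; 0.0573 to 0.194 without any 1 library, which ended the call). The promoter of Usp18, which restrains interferon signalling, had 613 and 174 tags in 3SL_LPS2h, against 58.7 and 100.0 tags in 3SL2h (2.08, adjusted p = 0.179). In each of the 3, replicate 1 was the higher with LPS.

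Genes of signalling feedback had 31 of 312 regions (9.94%) at 12 of 23 genes (Cish, Dusp2, Irak2, Irak3, Peli1, Pim1, Rapgef2, Rgs1, Socs1, Socs3, Tank and Zc3h12a), with p300 called at 13 and H3K27ac with 3'-sialyllactose at 20. The promoter of Irak3, a brake on TLR signalling, had 51.2 and 119 p300 tags in LPS2h, against 6.34 tags, 3 reads, in PBS2h (ratio 13.3, 95% counting interval 4.44 to 65.3; adjusted p = 0.0531). An intron of Zc3h12a, which encodes an RNase for cytokine mRNAs, had 63.7 and 36.8 tags in LPS2h, against 8.45 tags in PBS2h (2.39, adjusted p = 0.278). Neither passed, although all values with LPS lay above the vehicle value.

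Effector enzymes and metabolic genes had 28 of 229 regions (12.2%) at 13 of 21 genes, among them Nos2, Acod1, Gch1, Ass1, Slc7a2, Nampt, Hif1a, Ptges and Sod2, with p300 called at 11 and H3K27ac at 11. The promoter of Acod1, whose enzyme makes itaconate, had H3K27ac of 693 and 438 tags in LPS6h and 238.5 and 123 tags in LPS2h, against 10.8 and 1.01 tags in PBS2h. Its p300 was 209 and 110.4 tags in LPS2h and 0 in PBS2h, at least 25.4-fold higher (adjusted p = 0.00221; 0.0151 to 0.0361 without either LPS2h library), and 60.2 and 97.7 tags in LPS6h and 0 in PBS6h, at least 26.3-fold higher (adjusted p = 0.0179; 0.0986 to 0.137 without either LPS6h library, which ended the call). In both replicates H3K27ac was higher at 6 h than at 2 h and p300 was lower, in replicate 2 by little. Regions of the lists were named by their LPS6h acetylation, so its order is a description. For p300 limma called 0 of the regions between these times.

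Of 25 transcription factors 7 had a sustained region (Batf, Cebpd, Ets2, Etv3, Hivep2, Junb and Klf7), with 21 of 326 regions (6.44%), p300 called at 7 and H3K27ac at 12. A region 97814 bp from the start of Cebpd, in an intron of another gene, had 121 and 130.5 H3K27ac tags in 3SL_LPS2h, against 12.4 and 12.4 tags in 3SL2h (log2 change 3.24, adjusted p = 0.00452; 0.0662 without 3SL_LPS2h replicate 2). Its p300 was 15.2 and 10.3 tags in LPS2h, against 16.9 tags in PBS2h (−0.40, adjusted p = 0.926). This region gained acetylation with no gain of p300 in its central 200 bp.

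None of the 95 regions of 16 housekeeping genes was among the 1512. Of 16 genes of matrix and coagulation, Mmp14 and Itgav had 6 of 120 regions (5%). A region 10958 bp downstream of the start of Mmp14, a membrane-bound matrix protease, had 237 and 199 p300 tags in LPS2h and 2.11 tags, a single read, in PBS2h (ratio 103, 95% counting interval 18.4 to 4094; adjusted p = 0.000816; 0.00838 to 0.0121 without either LPS2h library).

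Some of the regions lay close together along the chromosomes. The same counts were not made for all regions, so whether these lie closer than open chromatin in general was not tested. Windows that overlap merge into 1246 stretches, and joining those within 10000 bp of each other leaves 980 clusters. Of these, 670 held a single region and 103 held 3 or more, with 428 of the 1512 regions (28.3%). The largest, chr17:17861997-17910877, held 19 regions over 48.9 kb, nearest to Fpr2 (10), Fpr1 (5) and Has1 (4), and took in all 10 regions of Fpr2 and all 5 of Fpr1. chr14:103011488-103052094 held 13 over 40.6 kb around the non-coding gene 4933432I03Rik (10) and Acod1 (3). chr11:117957853-117980277 held 11 over 22.4 kb, of which 9 were nearest to Socs3. Neighbours in a cluster share signal and are not independent.

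Other dense places were Slc31a2 (10 of its 14 regions, within 26.7 kb), Ccl5 (8 of 9, within 21.1 kb), Aoah (7 of 7) and Mir155hg (6 of 6, within 10.9 kb), the host of a microRNA of macrophage activation. Pla2g4a, which frees arachidonic acid from membranes, had the most regions, 16 of 43. The one in its intron (chr1:149841514-149842514) had 88.6 and 78.0 p300 tags in LPS2h and 0 in PBS2h, at least 13.2-fold higher (adjusted p = 0.00205; 0.0172 to 0.0248 without either LPS2h library). The promoter of Aoah, whose enzyme detoxifies LPS by removing acyl chains, had 201 and 104.5 tags in LPS2h, against 16.9 tags in PBS2h (log2 change 3.03, adjusted p = 0.0215; 0.149 without LPS2h replicate 1). Bcl2a1a, a survival gene of a family of near-identical copies whose reads may be placed on either copy, had 287 and 129.5 tags in an intron in LPS2h and 0 in PBS2h, at least 33.2-fold higher (adjusted p = 0.0003; 0.00286 to 0.00583 without either LPS2h library).

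The 58 low-start regions were acetylated from next to nothing. With LPS the low-start medians were 25.5 and 29.1 deposited H3K27ac tags in LPS2h and 31.4 and 27.6 in LPS6h, against 1.65 and 1.15 in PBS2h. In p300 their median log2 change was 4.26 at 2 h, with 19 of the 54 tested called (35.2%). At 6 h it was 3.03, with 3 called (5.56%). The other 1454 had 3.34 and 2.48, with 34.99% and 11.5% of those tested called, against 2.17% and 0.4% of all regions. In H3K27ac with 3'-sialyllactose the low-start median was 3.10 at 2 h, with 15 of the 58 called (25.9%). At 6 h it was 2.70, with 7 called (12.1%). The other 1454 had 2.58 and 2.36, with 42.9% and 20.6% called, against 1.55% and 0.518% of all regions. Median changes were thus larger in the low-start regions, while the share called was lower except for p300 at 2 h. No p300 tag was found in PBS2h at 62.1% of the low-start regions and 34.5% of the others. These medians were not set to bounds. These differences were not tested. The low-start regions lay further from start sites, at a median of 29335 bp, against 18930.5 bp for the other 1454.

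The one with the highest mean in LPS6h, in an intron of Ube2z, a ubiquitin-conjugating enzyme, had 94.3 and 113 rescaled H3K27ac tags in LPS2h and 133 and 131 in LPS6h, against 0.904 and 1.01 in PBS2h. Its p300 was 116 and 50.0 tags in LPS2h and 0 in PBS2h, at least 13.3-fold higher (adjusted p = 0.00392; 0.0547 without LPS2h replicate 1). With 3'-sialyllactose it had 61.0 and 83.1 H3K27ac tags in 3SL_LPS2h, against 0.827 and 1.83 tags in 3SL2h (log2 change 4.99, SE 0.48, adjusted p = 0.00229; 0.0227 to 0.0445 without any 1 library). Every value without LPS was close to 0 and far below every value with it.

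Only 1 low-start region lay within 1000 bp of a start site, that of Ccl5. Its promoter had 62.4 and 56.6 H3K27ac tags in LPS2h and 124 and 85.0 in LPS6h, against 0 and 1.01 in PBS2h. Its p300 was 95.6 and 42.7 tags in LPS2h and 0 in PBS2h, at least 11.03-fold higher (adjusted p = 0.0299; 0.0896 to 0.182 without either LPS2h library, which ended the call), and 24.5 and 3.76 tags in LPS6h and 0 in PBS6h (adjusted p = 0.413). In both replicates the acetylation of this promoter was higher in LPS6h than in LPS2h, and its p300 lower. Low-start regions were named by their LPS6h acetylation, so its order is a description. For p300 limma called 0 of the regions between these times.

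By position the sustained regions were distal. Of the 1512, 143 (9.46%) had their centre within 1000 bp of a start site, against 20.8% of all regions, 19.6% of the 2 h only and 3.57% of the 6 h only regions. The median distance was 19224.5 bp, against 15228 bp for all regions. Introns held 43.9% and intergenic sequence 46.0%, against 42.9% and 35.9% of all regions. The 2 h only regions lay at a median of 14996.5 bp and the 6 h only regions at 29545.5 bp, so the sustained regions stood between them.

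An NF-kB match lay in the central 200 bases of 266 regions (17.6%), against 4.02% of all regions. The share was 26.01% in the 2 h only and 7.14% in the 6 h only regions, so the sustained regions stood between them. AP-1 matches were in 22.02%, against 17.2% of all regions, ISRE in 8.80%, against 3.25%, C/EBP in 16.2%, against 10.3%, and GAS in 10.3%, against 5.69%. PU.1 matches were in 7.67%, against 9.68% of all regions and 13.5% of the 6 h only regions. C/EBP matches were in 9.80% of the 2 h only and 16.7% of the 6 h only regions. In the 2 h only and 6 h only regions AP-1 matches were in 21.6% and 20.2%, ISRE in 5.74% and 7.14%, and GAS in 10.8% and 4.37%. At least 1 of NF-kB, AP-1, ISRE and C/EBP was in 52.2%, against 31.1% of all regions. The 2 h only regions had 51.4% and the 6 h only regions 44.8%. The median GC content was 47%, against 49.5% of all regions.

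**Figure D5:**
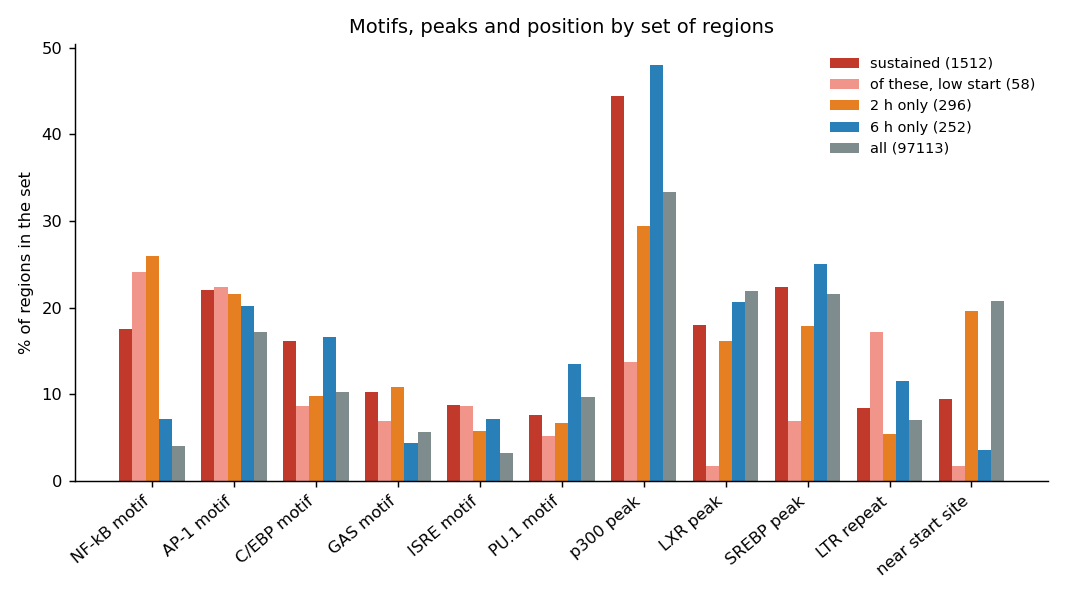
Share of regions (%) with each motif in the central 200 bases, with a peak of each factor, with an LTR repeat at the centre or with the centre within 1000 bp of a start site, by set. NF-kB matches are in 17.6% of the sustained, 26.01% of the 2 h only, 7.14% of the 6 h only and 4.02% of all regions, and the low-start regions have the lowest share of p300 peaks (13.8%).

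The regions with an NF-kB match had median p300 of 69.9 and 57.4 rescaled tags in LPS2h, against 2.11 tags in PBS2h, and p300 was called at 116 of the 261 tested (44.4%). The 1246 without one had 49.2 and 39.7 tags in LPS2h, against 4.23 tags in PBS2h, with 390 of 1185 called (32.9%). Over all 1446 of the regions tested the share called was 34.99%, and over all 62225 regions it was 2.17%. The difference between such subsets was not tested.

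The deposited peak lists of p300, LXR and SREBP were set against the regions. All LXR and SREBP samples were macrophages given 1 µM of the LXR agonist GW3965 for 18 h. The series also holds 1 p300 library from macrophages given 1 µM GW3965 for 18 h, which was not analysed here. The sources used here do not say in which samples the p300 peaks were called. These may include that library or the LPS-treated cells whose p300 is described above. A p300 peak overlapped the listed open-chromatin peak of 671 regions (44.4%), against 33.3% of all regions. The share was 29.4% of the 2 h only, 48.0% of the 6 h only and 13.8% of the low-start regions. Within the 1000 bp window it was 55.2%, against 39.4% of all regions. LXR peaks lay at 272 (18.0%), against 21.9% of all, and SREBP peaks at 339 (22.4%), against 21.6%. Regions with a listed p300 peak had median p300 of 81.7 and 73.6 rescaled tags in LPS2h, against 8.45 tags in PBS2h, and the 841 without one had 37.4 and 27.96 tags in LPS2h, against 0 in PBS2h. The low-start regions had an LTR repeat at the centre in 17.2%, against 8.47% of the 1512 and 7.02% of all.

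The 3 regions with the lowest change of p300 at 2 h were chosen for it and are given as values. An intron of Esf1 had 11.1 and 0 tags in LPS2h, against 12.7 tags in PBS2h (log2 change −1.98, SE 1.81, adjusted p = 0.695). Its H3K27ac was 41.7 and 14.5 tags in 3SL_LPS2h, against 3.31 and 2.29 tags in 3SL2h (2.77, adjusted p = 0.0609). An intron of St7 and a region beside Tfam had p300 changes of −1.14 and −1.05 (adjusted p = 0.782 and 0.82). At all 3 the p300 values in LPS2h lay below that in PBS2h, while H3K27ac was above vehicle by the rule.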

How the data were processed

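H3K27ac and p300 ChIP-seq signal was deposited by the authors as tags per merged open-chromatin region, counted with HOMER in windows of 1000 bp (H3K27ac) and 200 bp (p300) and scaled to 10000000 tags a library, per the file headers. Bowtie2, HOMER, DESeq2 and mm10 are named in the submitters' processing notes; no version is given in the sources used here. Whole reads were recovered for 100% of values (within 0.05 of a whole number). 5 columns matching no sample were not used.

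Values were rescaled by TMM (edgeR 4.0.16) over regions passing edgeR's filter on low counts and fitted on the log2 scale, log2(rescaled tags + 1), with limma 3.58.1 (R 4.3.3, trended empirical Bayes) over all 16 H3K27ac or 14 p300 libraries, with groups and no replicate term, leaving 7 and 6 residual degrees of freedom. P-values were adjusted by the Benjamini-Hochberg method over all 79349 or 62225 regions, with a threshold of 0.05. Where PBS held 0 tags a bound was computed from 3 tags over the group, and where it held 1 to 3 tags a 95% counting interval. Bounds and intervals cover counting error only. The fit was tested on simulated reads with changes of 2-, 4- and 8-fold. For H3K27ac in 3SL_LPS2h over 3SL2h, 0%, 10.6% and 54.5% of the changed regions were called. For p300 in LPS2h over PBS2h, 0%, 1.59% and 6.15% of the 61, 63 and 65 changed regions were called. Of the unchanged regions, 0.00266% of 75191 and 0.0434% of 55238 were called. Many changes can thus go uncalled, and p300 calls may include regions without a change. Motifs were searched in 200-base windows, and peak lists were set against the listed open-chromatin peaks by any overlap (Python 3.11.15, pandas 2.3.3, scipy 1.17.1, matplotlib 3.10.9).

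The regions and gene lists were chosen with earlier results of these data known. Regions named in the text come from fixed rules: the largest changes of p300 at 2 h (10) and of H3K27ac with 3'-sialyllactose at 6 h (8), the 3 most acetylated regions of each list, the 5 most acetylated low-start, other and promoter regions, the 3 lowest p300 changes, those at the limit of the rule, the genes with most regions, and the highest and lowest ratios of 6 h to 2 h. A few of these, and 1 gene list, are not reported here.

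Titles were followed where labels conflict, which was for H3K27ac only. Its replicate 1 LPS2h, 3SL_LPS2h and 3SL2h libraries, titled 2 h, carry 1 h in the treatment label. Its replicate 2 3SL_LPS2h library is labelled as vehicle there. Nothing says that replicates came from separate animals or cultures, so p-values measure only the spread between these samples, although replicates differed by more than counting noise (chi-square of 8.34 to 28.3 for each degree of freedom, from regions of at least 20 tags). A p65 peak list was not used, because its coordinates were judged not to be those of mm10. The NF-kB motif was at 2.09% of the listed centres and at 1.60% of positions 5000 bases away. A further 30 of its peaks lie on contigs with names ending in random, a count that does not tell the builds apart. The build of the list was thus not settled. Alternatives were the deposited scaling, pseudocount 5, no filter, edgeR, DESeq2 1.42.0, a replicate block, each library left out in turn, and other limits for the rule.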

Additional observations from a re-analysis of the deposited data

How the results depend on the processing

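With the deposited scaling every median change with LPS kept its direction. Over all alternatives and comparisons of the 45 regions examined singly, 1901 results kept their side of the threshold, 138 passed it, 457 no longer did and 0 reversed. The number of regions was 3059 with a limit of 2 times and 931 with 4 times PBS2h plus 1, and 2904 and 3657 with the rule on 1 replicate, against 1512. With the deposited scaling H3K27ac calls at 6 h with 3'-sialyllactose numbered 155, and p300 calls 1 (LPS2h over PBS2h), 0 (LPS6h over PBS6h), 3 (3SL_LPS2h over 3SL2h) and 0 (3SL_LPS6h over 3SL6h). Over all regions tested, calls in either direction numbered 173 for H3K27ac and 1, 0, 3 and 0 for p300. edgeR gave 57 and 0 p300 calls with LPS at 2 h and 6 h, against 79 and 0 in either direction over all regions tested. DESeq2 gave 1132 and 814 H3K27ac calls, 282 p300 calls in LPS6h over PBS6h and 332 in 3SL_LPS6h over 3SL6h, and 2 (H3K27ac, 3SL_LPS6h over 3SL_LPS2h) and 1 (p300, LPS6h over LPS2h) between the times. Its calls in either direction over all regions were, in the same order, 5262 and 2293, 489 and 586, and 195 and 2. Leaving out 1 library gave 31 to 135 and 0 to 208 H3K27ac calls at 2 h and 6 h, 178 to 265 and 4 to 8 p300 calls with LPS, and 91 to 300 and 0 to 117 with 3'-sialyllactose. Of 33 named H3K27ac calls at 2 h 5 held without any 1 library, of 29 p300 calls in LPS2h over PBS2h 15, and of 14 in LPS6h over PBS6h 0. The cause of these shifts was not tested.

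The labels do not say what a shared replicate number marks, and with 2 numbers it cannot be told whether they pair the samples, so the reported fit has no block. Same-numbered libraries deviated together (correlations 0.439 to 0.658 for H3K27ac and 0.192 to 0.377 for p300). With a replicate block, H3K27ac calls numbered 1405 at 2 h and 1295 at 6 h. p300 calls numbered 822 and 463 with LPS and 890 and 565 with 3'-sialyllactose. Calls between the times were 5 (H3K27ac) and 7 (p300). Calls over all regions tested, in either direction, rose too. They were 12473 and 7486 for H3K27ac, from 1839 and 464 in the reported fit. For p300 they were 4406 and 1510 with LPS, from 1447 and 263. With 3'-sialyllactose they were 3757 and 1769, from 734 and 148. Between the times they were 828 (H3K27ac) and 86 (p300), from 0 and 0. The comparisons of 3SL_LPS with LPS for p300 and of 3SL6h with PBS6h stayed at 0 in all settings. Alternatives on p65 peaks were not run, since that list was not used. Depth limits the p300 comparisons: 1 read is 2.11 rescaled tags in PBS2h and 1.07 in PBS6h.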
